A study of Mus musculus with 24 samples.

Results

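The 10 genes described here encode the enzymes that methylate lysine 9 of histone H3 (H3K9), the proteins that read the mark, and factors that bring this machinery to DNA. They were taken as a named list, matched by symbol to the Ensembl gene identifiers of both count tables, and all 10 of the 47937 genes in the tables were found and passed the filter on low counts in RNA-seq and in MeRIP-seq. H3K9 methylation marks heterochromatin, the compacted part of the genome that holds most repeats, and HP1 proteins bind the methylated lysine through their chromodomain. In mouse ES cells Suv39h1 and Suv39h2 trimethylate H3K9 at pericentromeric repeats, Setdb1 does so at endogenous retroviruses together with its recruiter Trim28, and Ehmt1 and Ehmt2 form the complex that places the mono- and dimethyl mark in euchromatin. Mettl3, the catalytic subunit, and Mettl14, its RNA-binding partner, place N6-methyladenosine (m6A) on RNA.

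RNA of 4 mouse ES cell lines was measured by RNA-seq in 8 libraries and by MeRIP-seq in 16. There were 2 replicates per line, called biological in the methods for MeRIP-seq. The study describes nuclear RNA for both assays, although the RNA-seq labels name total RNA. WT26 is a wild-type line from a 129/Sv x C57Bl6 cross, and Mettl14 KO is a single clone (A10) made from it with CRISPR/Cas9, whose small homozygous deletion shifts the reading frame and truncates Mettl14. RBC is a line of the same background that carries BirA-V5 at Rosa26 and Cre-ERT2, and Mettl3 KO is a single clone (2c4d) derived from it, which carries the same transgenes. All lines were grown with serum replacement and LIF on gelatin, and in MeRIP-seq an anti-m6A immunoprecipitation (IP) was sequenced beside the input RNA it was made from. Each knockout was compared with its own parent line, which asks whether loss of an m6A writer changed the level or the m6A enrichment of the transcripts, and since each knockout is 1 clone, the mutation and the history of the clone cannot be told apart.

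RNA-seq libraries held 11321459 to 13743181 counted reads and MeRIP libraries 9394163 to 28441282. The 2 RBC libraries of RNA-seq stood further apart than those of the other lines, since their counts gave 35.6 for chi-square divided by its degrees of freedom and those of the other lines 2.76 to 5.75, so the calls that were lost without RBC replicate 2 are named. All 8 pluripotency markers were detected, and their summed level was 23905 to 23922 normalized counts for WT26, 16644 to 16715 for Mettl14 KO, 21583 to 21944 for RBC, and 18077 to 18092 for Mettl3 KO. This sum was lower in each knockout than in its parent, as were Trim28, Cbx5 and Hells. All 8 markers were lower in Mettl14 KO and 7 in Mettl3 KO, where Klf4 was higher, with 1868 and 1852 against 1255 and 1230.3 in RBC. The part of these markers in the members' results was not tested. The 5 lists of other cell types (primitive endoderm, neural, mesoderm, trophoblast, fibroblast) each summed to at most 1169 normalized counts in any library, and neural markers were the highest of them. Primitive endoderm markers summed to 55.8 to 56.1 in WT26 and 167 to 173 in Mettl14 KO, and fibroblast markers to 81.4 to 84.8 and 27.3 to 40.1 in these lines, and to 103.5 to 116 in RBC and 43.5 to 56.4 in Mettl3 KO. The fall of the fibroblast sum lay mainly in Thy1, with 75.1 and 79.4 in WT26 against 18 and 19.5 in Mettl14 KO. Mettl3 KO had 10.4 and 19.1 for Thy1, against 80.5 and 98.6 for its parent. Col1a2 was higher in each knockout than in its parent, Postn was lower in Mettl3 KO only, and Dcn was 0 in every library. A lower fibroblast content can therefore not be read from this sum. What these shifts of the marker sums add to the members' values was not tested either. Reads of both targeted genes were still counted: Mettl14 had 297 and 316 normalized counts in Mettl14 KO and 401 and 358 in WT26, and Mettl3 had 880 and 821 in Mettl3 KO and 928 and 979 in RBC.

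Per kilobase of exon, the scale on which levels of different genes can be compared, Trim28 stood far above the other 9 genes. It ranged from 1913 to 3473 normalized counts per kb over the 8 RNA-seq libraries, and 99.3% of the tested genes had a lower mean. The identifier version of Trim28 differs between the counts and the annotation used. Its exon length and coordinates may therefore not match the counted gene model. Hells, a SNF2-family remodeller needed for DNA methylation of repeats, ranged from 685 to 809, and Cbx5, which encodes HP1α, from 603 to 872. These ranges overlapped, as did those of Setdb1 (288 to 515) and Cbx1, the HP1β gene (340.1 to 444). The order within each of these pairs depended on the line. Cbx5 lay above Hells in both libraries of WT26 and below it in those of every other line. Setdb1 lay below Cbx1 in both libraries of Mettl14 KO and above it in those of every other line. Ehmt2 (175 to 221) and Ehmt1 (159 to 211) followed, also overlapping. The lowest levels were those of Suv39h1 (74.2 to 154), Cbx3, the HP1γ gene (105 to 128), and Suv39h2 (101 to 143), and even for Suv39h2 68.6% of the tested genes had a lower mean. Cbx3 has 8 annotated genes named as its pseudogenes, which may make its count less certain. Their type and sequence were not examined.

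**Figure D1:**
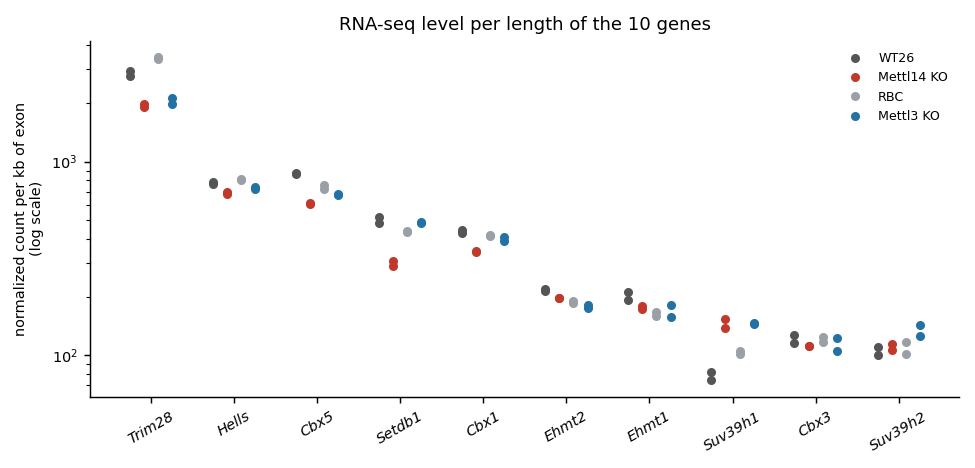
RNA-seq level of the 10 genes as normalized counts per kilobase of exon (log axis), each point a library coloured by line, genes ordered by their mean over the 4 lines. Trim28 lies between 1913 and 3473 in every library and Suv39h1, Cbx3 and Suv39h2 lie between 74.2 and 154.

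In Mettl14 KO cells the RNA-seq level of 7 of the 10 genes was lower than in WT26 and that of 1, Suv39h1, was higher, at an adjusted p of at most 0.05. Among all 17021 tested genes 27% were called lower and 25.5% higher by the same rule, so a call alone is common in this comparison. No member passed the further limit of a log2 fold change above 1 in size, which 7.95% of all genes passed upward and 6.57% downward. The members' median log2 fold change was -0.19, and that of all tested genes was 0. Fewer molecules per cell and fewer cells that express a gene cannot be told apart in these bulk libraries.

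Of the SUV39H enzymes, Suv39h1 was higher in both knockouts and Suv39h2 was called higher in Mettl3 KO alone; the genes were not tested against each other. Suv39h1 had 433 and 391 normalized counts in WT26 and 813 and 730 in Mettl14 KO (replicates 1 and 2), without overlap between the lines. On the log2 scale this was a rise of 0.90 with a standard error (SE) of 0.0772, or 1.87-fold, with an adjusted p of 2.6e-08 in edgeR's quasi-likelihood test. In the other pair Suv39h1 had 535 and 554 in RBC against 778 and 764 in Mettl3 KO, a log2 fold change of 0.50 (SE 0.0753, adjusted p = 2.1e-05). The rise in Mettl14 KO was larger than that in Mettl3 KO by 0.40 on the log2 scale (SE 0.108, adjusted p = 0.00601). The levels in the 2 knockouts overlapped, while RBC stood above WT26 by 0.40 (adjusted p = 6.3e-04). Scaled by library size, the gap between the knockouts was -0.22 with an adjusted p of 0.108.

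An antisense gene, Gm14820, lies across Suv39h1 on the X chromosome (Suv39h1 X:8061171-8074760 on the minus strand, Gm14820 X:8042943-8074619 on the plus strand, GRCm38) and shares 767 exonic bases with it. It was looked at after the values of Suv39h1 were known. Gm14820 had 261 and 221 normalized counts in WT26 and 83.1 and 85.7 in Mettl14 KO, the opposite direction to Suv39h1, with a log2 fold change of -1.52 (adjusted p = 2.9e-08 in edgeR). It had 175 and 185 in RBC against 123 and 131 in Mettl3 KO, a log2 fold change of -0.51 (adjusted p = 0.00260). The mean of Suv39h1 rose by 359 normalized counts in Mettl14 KO and by 227 in Mettl3 KO, while that of Gm14820 changed by -157 and -53.25. Whether the counting separated the strands is not given in the sources used here, and its part in either change was not tested.

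Suv39h2 (2:3455815-3475031, minus strand), the paralogue of Suv39h1, had 486 and 443 normalized counts in WT26 and 504 and 472 in Mettl14 KO, with overlapping lines and a log2 fold change of 0.07 (adjusted p = 0.555 in edgeR). It had 515 and 448 in RBC against 553 and 633 in Mettl3 KO, without overlap, and a log2 fold change of 0.30 (SE 0.0888, adjusted p = 0.00827). This call rested on single libraries: without RBC replicate 2 the log2 fold change was 0.20 (adjusted p = 0.133) and without Mettl3 KO replicate 2 it was 0.21 (adjusted p = 0.0810). Groups without overlap are common in that pair: 37.4% of all tested genes lay above RBC in both Mettl3 KO libraries and 38.3% below. Suv39h2 shares 357 exonic bases with Dclre1c on the opposite strand.

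The genes of the G9a/GLP complex shifted by small amounts. Ehmt1 (GLP, 2:24789928-24919614, minus strand) had 1716 and 1573 normalized counts in WT26 and 1400.1 and 1460.3 in Mettl14 KO, a log2 fold change of -0.20 (SE 0.0631, adjusted p = 0.0122 in edgeR). Ehmt2 (G9a, 17:34898469-34914052, plus strand) had 1182 and 1212 in WT26 and 1079.7 and 1080.4 in Mettl14 KO, a log2 fold change of -0.15 (SE 0.0536, adjusted p = 0.0275). Neither gene overlapped between these lines, but both calls were fragile. Ehmt1 lost its call without WT26 replicate 1 (adjusted p = 0.159) or Mettl14 KO replicate 1 (0.105), and Ehmt2 without any of the 4 libraries (adjusted p between 0.0664 and 0.139) and in DESeq2 (0.134). In the other pair neither passed the test: Ehmt1 had 1357 and 1289.5 in RBC against 1474 and 1287 in Mettl3 KO (log2 fold change 0.06, adjusted p = 0.421), and Ehmt2 had 1042 and 1022 against 962 and 995 (-0.08, adjusted p = 0.248).

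Setdb1 (3:95323525-95357202, minus strand), the enzyme that trimethylates H3K9 at retroviral elements, fell most among the 10 genes in Mettl14 KO and was the member that separated the knockouts most. It had 3531 and 3299 normalized counts in WT26 and 1976 and 2115 in Mettl14 KO, a log2 fold change of -0.74 (SE 0.0502, adjusted p = 1.2e-09 in edgeR), which leaves 0.599 of the WT26 level. In RBC it had 2979.7 and 2994 and in Mettl3 KO 3359 and 3307, slightly higher in the knockout (log2 fold change 0.16, SE 0.0495, adjusted p = 0.0119). The changes differed by 0.90 on the log2 scale (SE 0.0704, adjusted p = 2.0e-08). The fall in Mettl14 KO held in every alternative tried, whereas the rise in Mettl3 KO had an adjusted p of 0.0764 without RBC replicate 1 and 0.0588 without RBC replicate 2. The 3′ end of Setdb1 overlaps that of Cers2 on the other strand by 75 exonic bases, and Cers2 rose in Mettl3 KO by a log2 fold change of 0.77 (adjusted p = 3.4e-08). Its part in the count of Setdb1 was not tested.

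Trim28 (7:12999114-13031035, plus strand), the corepressor (KAP1) that KRAB zinc-finger proteins use to bring Setdb1 to DNA, was lower in both knockouts. It had 11492 and 12155 normalized counts in WT26 and 8287 and 7952 in Mettl14 KO, a log2 fold change of -0.54 (SE 0.0554, adjusted p = 2.5e-07 in edgeR). It had 14164 and 14442 in RBC against 8227 and 8867 in Mettl3 KO, a log2 fold change of -0.74 (SE 0.0555, adjusted p = 4.2e-09). The groups did not overlap in either pair, and both falls held in every alternative tried. The larger fall in Mettl3 KO started from a higher level, since RBC stood above WT26 by 0.27 on the log2 scale (adjusted p = 6.6e-04). The difference between the falls, -0.20, was near the threshold (adjusted p = 0.0461) and passed it neither with TMM normalization (adjusted p = 0.0509) nor with library-size scaling (-0.03, adjusted p = 0.814), nor when any library other than WT26 replicate 2 or Mettl3 KO replicate 2 was left out (adjusted p between 0.0544 and 0.171).

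Of the HP1 genes, Cbx5 and Cbx1 were lower in Mettl14 KO and Cbx3 was not called. They lie at 15:103191544-103239816 (Cbx5, minus strand), 11:96789127-96808640 (Cbx1, plus strand) and 6:51470360-51483704 (Cbx3, plus strand). Cbx5 had 7854 and 7743 normalized counts in WT26 and 5433 and 5533 in Mettl14 KO, a log2 fold change of -0.51 (SE 0.0497, adjusted p = 1.4e-07 in edgeR). Cbx1 had 1896 and 1828 in WT26 and 1453 and 1478 in Mettl14 KO, a log2 fold change of -0.35 (SE 0.0476, adjusted p = 8.6e-06). Cbx3 had 695 and 767 against 673 and 669, which also did not overlap, with a log2 fold change of -0.12 (adjusted p = 0.213). Groups without overlap are common here: 38.7% of all tested genes lay below WT26 in both Mettl14 KO libraries and 37.8% above.

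In Mettl3 KO the HP1 genes differed little from RBC. Cbx5 had 6524 and 6848 in RBC against 6059 and 6150.2 in Mettl3 KO, a log2 fold change of -0.13 (SE 0.0496, adjusted p = 0.0330 in edgeR) that was lost without RBC replicate 2 (-0.10, adjusted p = 0.214), without Mettl3 KO replicate 1 (-0.12, adjusted p = 0.103) and in a fit of the 4 compared libraries alone (adjusted p = 0.0633). Cbx1 had 1775 and 1792 against 1659 and 1742 (log2 fold change -0.07, adjusted p = 0.229), and Cbx3 703.5 and 748 against 631 and 740.3 (-0.09, adjusted p = 0.383). The falls of Cbx5 and Cbx1 were larger in Mettl14 KO than in Mettl3 KO, by 0.38 (adjusted p = 3.0e-04) and 0.28 (adjusted p = 0.00283) on the log2 scale, and Cbx3 was not called in that test.

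Hells (19:38930915-38971051, plus strand) was lower by a similar small amount in both knockouts. It had 5643 and 5515 normalized counts in WT26 and 4999 and 4932 in Mettl14 KO (log2 fold change -0.17, SE 0.0477, adjusted p = 0.00668 in edgeR), and 5760.4 and 5827 in RBC against 5319 and 5189 in Mettl3 KO (-0.14, SE 0.0477, adjusted p = 0.0188). Neither pair overlapped. The first call was lost without Mettl14 KO replicate 2 (adjusted p = 0.0552), and the second without RBC replicate 1 (0.0592), RBC replicate 2 (0.0830) or Mettl3 KO replicate 2 (0.0738).

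**Figure D2:**
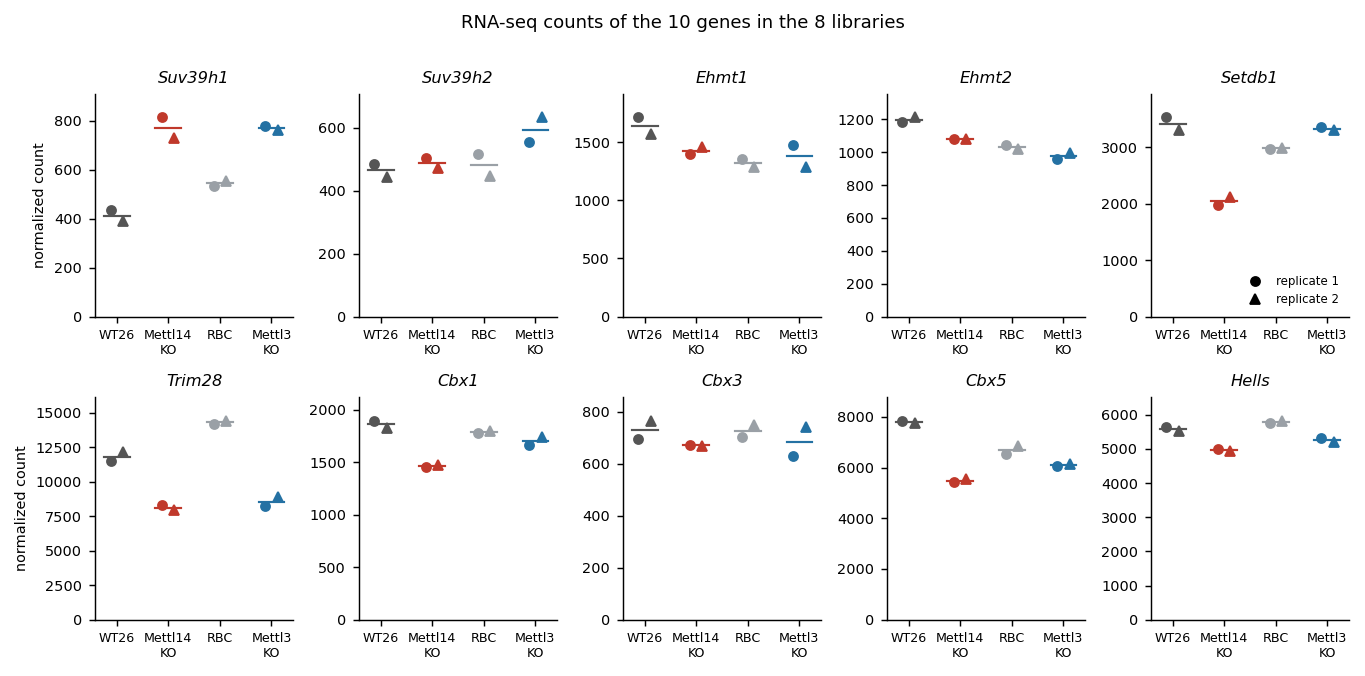
RNA-seq normalized counts (linear axes from 0, a panel per gene) in the 4 lines, with a circle for replicate 1, a triangle for replicate 2 and a bar for their mean. Setdb1 is at 1976 and 2115 in Mettl14 KO and at 2979.7 or more in the other 6 libraries, Trim28 is at 8867 or less in the knockouts and at 11492 or more in the parent lines, and Suv39h1 is at 730 or more in the knockouts and at 554 or less in the parents.

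Counted over the list, Mettl3 KO cells had 3 members higher than RBC (Suv39h1, Suv39h2, Setdb1), beside 25.2% of all genes, and 3 lower (Trim28, Cbx5, Hells), beside 28.1%. None passed a log2 fold change of 1 in size, which 6.15% of all genes passed upward and 7.43% downward. The median log2 fold change of the members was -0.07, and that of all tested genes was 0 to 2 decimals (-0.0016). Without RBC replicate 2 only Suv39h1 remained higher and only Trim28 lower. Library-size scaling moved the median of all genes to 0.151 in this comparison, and under it Cbx5 (0.02), Hells (0.01), Ehmt2 (0.07), Cbx1 (0.08) and Cbx3 (0.06) changed sign, while relative to that median each stayed below it. The 4 genes whose change was higher in Mettl3 KO than in Mettl14 KO were Setdb1, Cbx5, Cbx1 and Ehmt1 (0.27, adjusted p = 0.0234 in edgeR, and 0.0771 in DESeq2), beside 20.8% of all genes, and the 2 lower were Suv39h1 and Trim28, beside 22.4%. The Ehmt1 difference was lost without WT26 replicate 1 (0.20, adjusted p = 0.124), Mettl14 KO replicate 1 (0.23, adjusted p = 0.0960), RBC replicate 2 (0.23, adjusted p = 0.0938) or Mettl3 KO replicate 1 (0.16, adjusted p = 0.129). No difference passed 1 in size, against 5.9% of all genes upward and 8.07% downward.

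The parent lines themselves differed at these genes. RBC stood above WT26 at 2 members (Suv39h1 and Trim28, beside 19.7% of all genes) and below it at 4 (beside 19.2%), namely Ehmt1 by 0.32, Cbx5 by 0.22, Ehmt2 by 0.21 and Setdb1 by 0.19 on the log2 scale, with adjusted p between 6.96e-04 and 0.00455 in edgeR. Setdb1 lost this call without WT26 replicate 1 (adjusted p = 0.0776), Trim28 lost it with library-size scaling (0.13, adjusted p = 0.0670), and all 6 calls stayed without RBC replicate 2. Suv39h2, Cbx1, Cbx3 and Hells were not called. The fall of Setdb1 in Mettl14 KO (-0.74) was larger in size than this gap between the parents, whereas those of Ehmt1 (-0.20) and Ehmt2 (-0.15) were smaller than theirs. No member differed between the parents by more than 1 on the log2 scale, which 4.86% of all genes passed upward and 4.12% downward.

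The MeRIP input libraries, made from sonicated nuclear RNA as separate samples of the same lines, give another measure of level, with a wider spread between replicates. No member was called in them in either knockout, where 0.124% of all features were called higher and 0.274% lower in Mettl14 KO, while Mettl3 KO had 0.181% higher and 0.579% lower (0.57% with a log2 fold change below -1). The 10 input log2 fold changes ran from -0.69 to 0.10 in Mettl14 KO (median -0.16) and from -0.58 to 0.24 in Mettl3 KO (median -0.07). Setdb1 had 2167 and 2168 normalized counts in the WT26 inputs and 1328 and 1358 in those of Mettl14 KO. The log2 fold change of -0.69 was close to that of RNA-seq (SE 0.221, adjusted p = 0.220 in edgeR), and it passed the test when only the compared libraries were fitted (adjusted p = 0.0140). That fit called 5.53% of all features, against 0.398% in the fit of all libraries. For Trim28 the input changes were -0.50 in Mettl14 KO and -0.58 in Mettl3 KO (SE 0.291 for both, adjusted p = 0.625 and 0.477), the second of which also passed when only the compared libraries were fitted (-0.60, adjusted p = 0.0165). In Mettl3 KO such a fit called 11.5% of all features, against 0.76% with all libraries. For Cbx5 in Mettl14 KO the change was -0.36 (adjusted p = 0.871).

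The rise of Suv39h1 was not seen in the inputs. Suv39h1 had 563 and 516 normalized counts in the WT26 inputs and 557 and 461 in those of Mettl14 KO, a log2 fold change of -0.08 (SE 0.212, adjusted p = 0.983 in edgeR), and 509 and 649 in RBC against 639 and 658 in Mettl3 KO (0.16, SE 0.211, adjusted p = 0.864). Gm14820 had 240 and 214 normalized counts in the WT26 inputs and 166 and 164 in those of Mettl14 KO (log2 fold change -0.46, adjusted p = 0.717). In the other pair it had 152 and 225 in the RBC inputs against 231 and 212 in those of Mettl3 KO, which overlapped (0.24, adjusted p = 0.865), while its RNA-seq change there was -0.51. The MeRIP and RNA-seq tables were counted separately, and the difference between the assays was not tested.

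**Figure D3:**
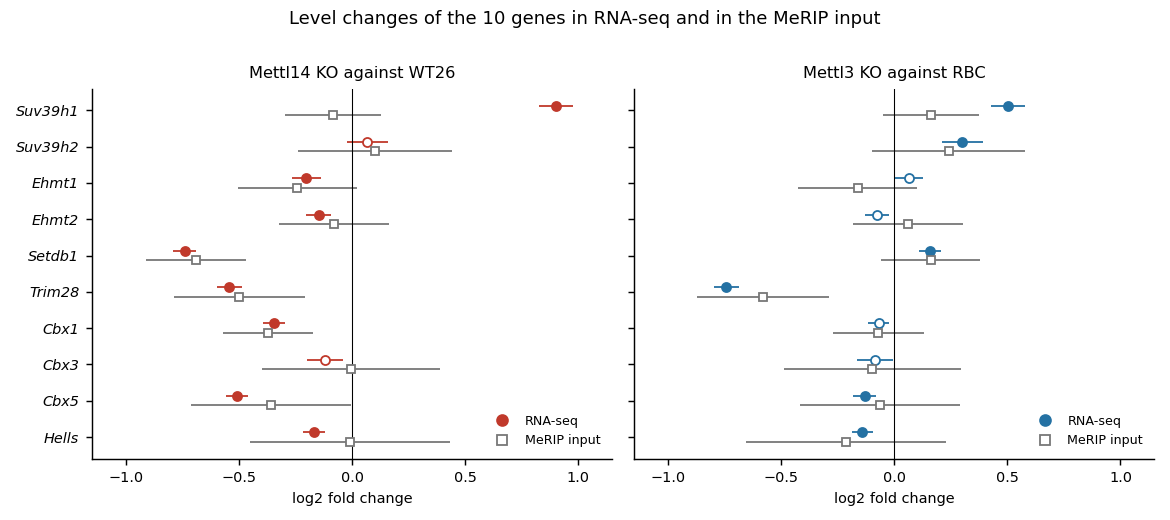
Log2 fold change with its SE for the 10 genes in Mettl14 KO against WT26 (left) and Mettl3 KO against RBC (right), from RNA-seq (circles) and from the MeRIP input (squares), filled where the adjusted p was at most 0.05. Setdb1 in Mettl14 KO and Trim28 in both knockouts lie near the same value in both assays, and Suv39h1 in Mettl14 KO is at 0.90 in RNA-seq and at -0.08 in the input.

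A list of 43 other genes of H3K9 methylation was described in the same way, and 42 of them were tested in RNA-seq. In Mettl14 KO 11 were higher and 22 lower (median of all 42, -0.13 on the log2 scale), beside the 25.5% and 27% of all genes given above. In Mettl3 KO 14 were higher and 11 lower (median 0.06), beside 25.2% and 28.1%. The groups within the list are small and are given as counts against the same shares. The H3K9 demethylases, which remove the mark, had 6 of 9 tested genes lower and 2 higher in Mettl14 KO, and none lower and 4 higher in Mettl3 KO. The parents already differed here: 6 of the 9 were lower in RBC than in WT26 and none was higher (median -0.39), beside 19.2% and 19.7% of all genes. The KRAB zinc fingers and relatives of Trim28 had 4 of 4 lower in Mettl14 KO, and 1 higher and 1 lower in Mettl3 KO. Writers and their cofactors had 3 higher and 3 lower of 10 in Mettl14 KO and 5 higher and 3 lower in Mettl3 KO, so that list had no common direction. The HUSH complex and MORC2 had 2 higher and 1 lower of 4 in Mettl14 KO, and 1 higher and 2 lower in Mettl3 KO. HP1 partners and H4K20 methyltransferases had 2 higher and 3 lower of 7, and then 2 higher and 2 lower. Histone chaperones and remodellers had 2 higher and 5 lower of 8, and then 1 higher and 3 lower.

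The largest change of this list in Mettl14 KO was that of Kdm3a, a demethylase of mono- and dimethylated H3K9, with 4400.4 and 4413 normalized counts in WT26 and 1841 and 1825 in the knockout (log2 fold change -1.27, SE 0.0515, adjusted p = 2.2e-12 in edgeR). No difference was called in Mettl3 KO (-0.01, adjusted p = 0.915), although library-size scaling gave 0.14 there (adjusted p = 0.0220). Kdm4c, a demethylase of the trimethyl mark, had 1795 and 1711 in WT26 and 954 and 967 in Mettl14 KO (-0.87, adjusted p = 6.4e-09), and in Mettl3 KO it was not called (-0.03, adjusted p = 0.706, or -0.16 and 0.0448 without Mettl3 KO replicate 1).

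In Mettl3 KO the largest change was that of Zfp57, a KRAB zinc-finger protein that brings Trim28 to imprinted regions. It had 10047 and 10160 normalized counts in RBC against 3280.1 and 3384 in Mettl3 KO (log2 fold change -1.60, SE 0.0541, adjusted p = 1.6e-13 in edgeR). The MeRIP input gave -1.59 (adjusted p = 0.0114, between 0.0504 and 0.247 without any 1 of the 4 libraries), and in Mettl14 KO the RNA-seq change was -0.47 (adjusted p = 7.3e-07). Phf2, a Jumonji-domain protein, had 95.4 and 98.6 in RBC against 178 and 175 in Mettl3 KO (0.86, adjusted p = 1.7e-05).

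**Figure D4:**
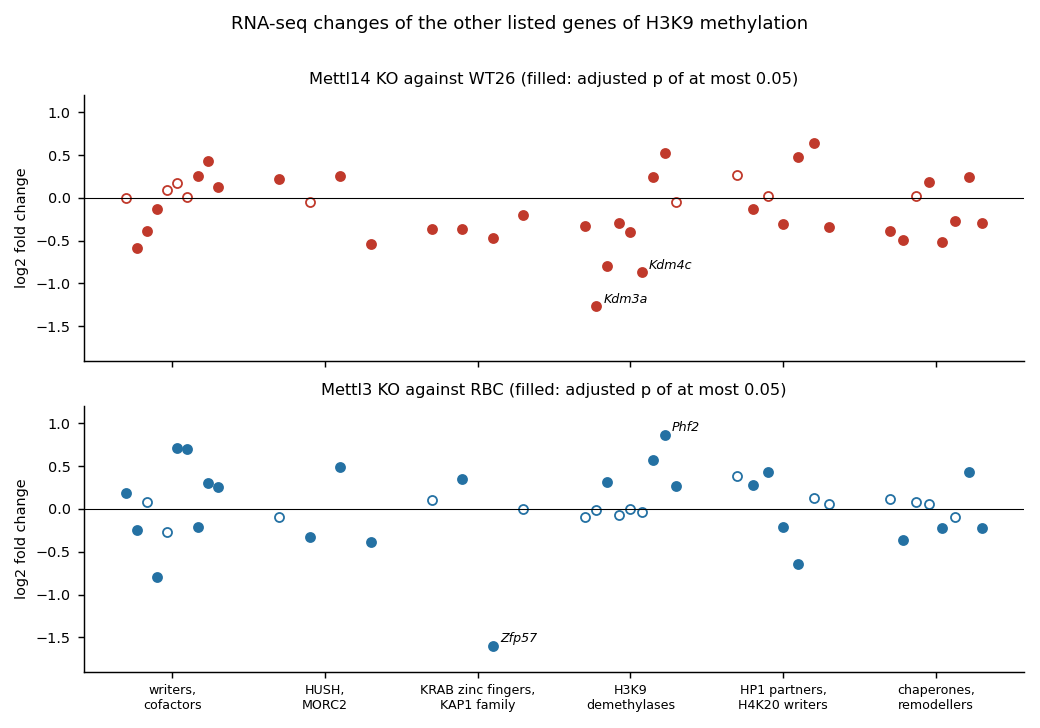
RNA-seq log2 fold change of the 42 other tested genes of H3K9 methylation, a point per gene grouped by role, in Mettl14 KO against WT26 (top) and Mettl3 KO against RBC (bottom). Kdm3a (-1.27) is the lowest point in Mettl14 KO and Zfp57 (-1.60) in Mettl3 KO, and the 4 KRAB and KAP1-family genes lie below 0 in Mettl14 KO.

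The m6A enrichment of a transcript was read as the log2 of its normalized count in the IP over that in the input. Suv39h2 was the member with the highest value. In replicates 1 and 2 WT26 had 0.64 and 1.18, Mettl14 KO had 0.60 and 1.29, RBC had 0.61 and 1.48, and Mettl3 KO had 0.36 and 0.72. All 8 values were above 0, and the lines overlapped. Fitted over the replicates this gave 0.96 in WT26 (SE 0.338, adjusted p = 0.0431 in edgeR), 1.01 in Mettl14 KO (adjusted p = 0.0426), 1.09 in RBC (adjusted p = 0.0310) and only 0.55 in Mettl3 KO (adjusted p = 0.321). Where a log2 value above 1 was asked for beside the adjusted p, Suv39h2 was therefore enriched in Mettl14 KO and RBC and just under the limit in WT26, and no other member was enriched in any line.

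The background for that rule was 14.5% of all 22621 features in WT26, 11.9% in Mettl14 KO, 13.4% in RBC and 2.54% in Mettl3 KO. In WT26 76.8% of the tested genes had a lower value than Suv39h2. Without replicate 2 Suv39h2 had 0.64 in WT26 (adjusted p = 0.484), 0.61 in Mettl14 KO (0.537) and 0.62 in RBC (0.579), but then only 0.0804%, 0.121% and 0.0961% of all features were called in either direction, so the lost call is not particular to Suv39h2. Without replicate 1 it had 1.18 in WT26 (adjusted p = 0.0774) and 1.30 in Mettl14 KO (0.0590), where 21.6% and 17.2% of all features were called. With input and IP paired by replicate, the value in Mettl14 KO no longer passed the limit of 1.

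Sequence near the stop codon, where m6A is commonly found in mRNA, is shown for Suv39h2 because it had the highest enrichment. It is also shown for Suv39h1 and Setdb1, chosen after their values were seen. Among the members in Mettl14 KO, Suv39h1 had the largest rise and Setdb1 the largest fall. Trim28, which fell by a similar amount in Mettl3 KO (-0.74), had no match to show. The search was for GGACT, a common form of the m6A consensus, on the transcript strand within 200 bases on either side of the end of the stop codon of the longest coding transcript (GENCODE, GRCm38), and capitals mark the match.
Suv39h2, chr2:3458527-3458551, minus strand, 3′UTR: aaagtatttgGGACTcctttctatt
Suv39h2, chr2:3458430-3458454, minus strand, 3′UTR: attctgaaaaGGACTgcggggcaca
Setdb1, chr3:95324146-95324170, minus strand, coding: aactcacttgGGACTacaactacga
Setdb1, chr3:95323916-95323940, minus strand, 3′UTR: ttctcaatcaGGACTttcccagcgt
Suv39h1, chrX:8062938-8062962, minus strand, coding: gtacccgaatGGACTccaactttgg
Suv39h1, chrX:8062678-8062702, minus strand, 3′UTR: gctgttgtgaGGACTaactccgggt

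Of the 10 genes, 6 held GGACT in this window: Suv39h1, Suv39h2, Ehmt2 and Setdb1 had 2 matches and Ehmt1 and Cbx3 had 1, while Trim28, Cbx1, Cbx5 and Hells had none. Among 21407 protein-coding genes 36.1% held at least 1. Over the whole transcript Suv39h1 had the most matches per kb, 2.52, and Cbx3 the fewest, 0.53, against a median of 1.02 for all genes. A match is a description of the letters only: Suv39h1, with the densest matches, had log2 IP over input values of -0.10 and -0.31 in WT26, and Suv39h2 had 0.92 matches per kb.

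Trim28 and Cbx5 were depleted from the IP. In replicates 1 and 2 WT26 had log2 values of -0.94 and -1.85 for Trim28, Mettl14 KO had -1.09 and -1.52, RBC had -1.07 and -1.62, and Mettl3 KO had -0.75 and -0.53, the highest of the 8. The fitted values were -1.34, -1.31 and -1.31 in the first 3 lines (adjusted p = 0.00808, 0.0119 and 0.0107 in edgeR), and -0.63 in Mettl3 KO (adjusted p = 0.190). For Cbx5 WT26 had -1.07 and -2.16, Mettl14 KO had -0.92 and -1.95, RBC had -0.78 and -1.98, and Mettl3 KO had -0.46 and -0.83. The fitted values were -1.54, -1.40, -1.29 and -0.65 in the same order (adjusted p = 0.00962, 0.0172, 0.0209 and 0.267). Both genes were below 0 in all 8 pairs of libraries, and 12.8% and 10.6% of the tested genes lay below them in WT26. Without replicate 2 of a line these calls were lost (adjusted p of at least 0.307), as were nearly all calls over the features, and the values ran from -0.93 to -1.07 for Trim28 and from -0.78 to -1.06 for Cbx5.

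By the adjusted p alone, 1 member (Suv39h2) was above 0 in WT26, Mettl14 KO and RBC, beside 16.9%, 13.5% and 15.5% of all features, and 2 (Trim28 and Cbx5) were below, beside 16.1%, 12% and 13.1%. Both were also below -1, as were 13.5%, 9.91% and 11.1% of features. None was called in Mettl3 KO, beside 2.78% above, 2.22% below and 1.86% below -1. Hells had the next lowest values, lowest in replicate 2 of every line: -1.93 for WT26, -1.9 for Mettl14 KO, -1.8 for RBC and -0.85 for Mettl3 KO, against -0.72, -0.51, -0.54 and -0.22 in replicate 1. Its fitted value in WT26 was -1.20 (adjusted p = 0.0528 in edgeR), and it passed the test when input and IP were paired by replicate (-1.32, adjusted p = 0.0455). That call depended on the setting: Hells stayed uncalled in WT26 in 4 of the 11 alternatives tried. The other 6 genes stayed between -0.40 and 0.51 in the fit of every line and were not called.

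Replicate 2 of the IP was wider than replicate 1 for genes in general, not for these members alone. Over all genes the interquartile range of log2 IP over input was 1.2 in replicate 1 and 2.1 in replicate 2 for WT26, 1.13 and 2.01 for Mettl14 KO, 1.11 and 2.05 for RBC, and 0.89 and 1.38 for Mettl3 KO. The range was thus narrower in Mettl3 KO than in RBC in both replicates. What this narrowing adds to the members' values was not tested.

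**Figure D5:**
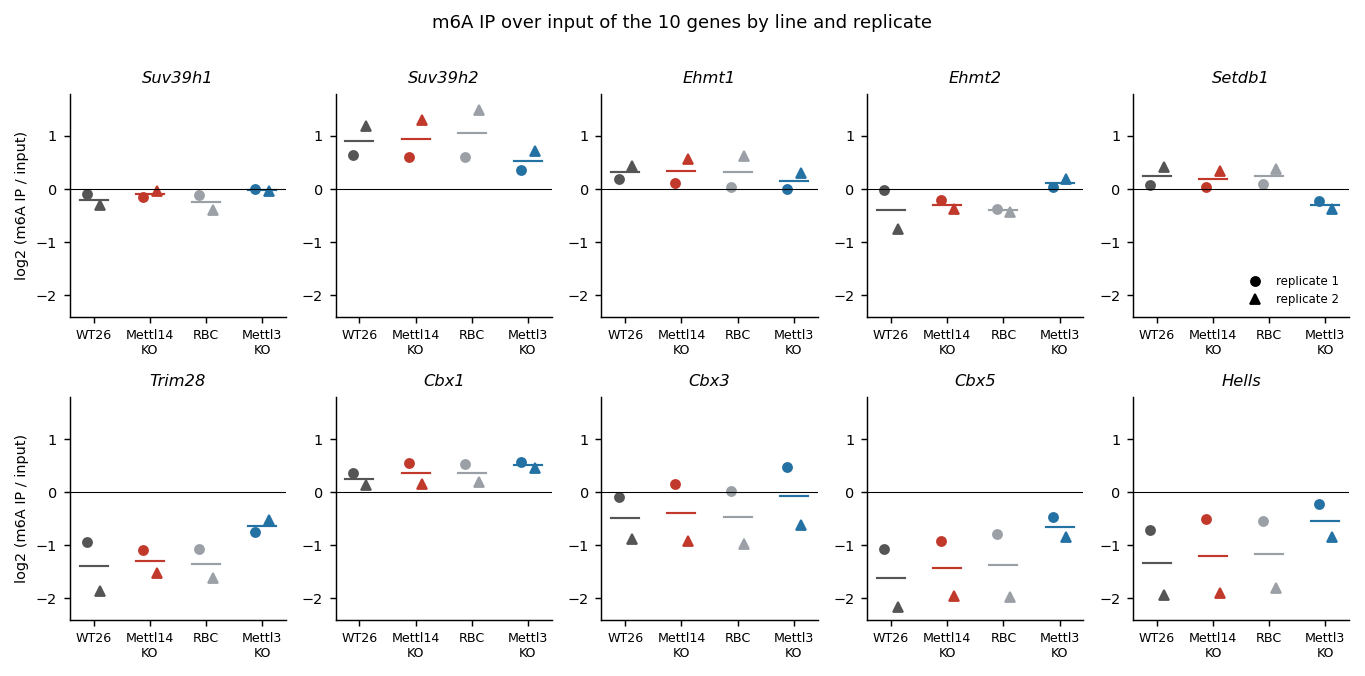
Log2 of the normalized count in the m6A IP over that in the input, a panel per gene with the same axis, for replicate 1 (circle), replicate 2 (triangle) and their mean (bar) in each line. Suv39h2 lies above 0 and Trim28, Cbx5 and Hells lie below 0 in all 8 pairs, and in Mettl3 KO the Setdb1 values (-0.23 and -0.38) lie below those of the other 3 lines.

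The change of enrichment in a knockout, tested as the difference between its IP over input and that of its parent, was called for none of the 10 genes. In Mettl14 KO the members' changes lay between -0.06 and 0.15, with a median of 0.08 (0.02 for all features), and for Suv39h2, Trim28 and Cbx5 they were 0.06, 0.04 and 0.15 with SEs of 0.475, 0.41 and 0.502. In edgeR 0 of 22621 features (0%) were called, 126 (0.557%) had an unadjusted p under 0.05, and DESeq2 called 1. None of the members had an unadjusted p under 0.05. Changes of the size of these SEs or smaller could not be called here, and larger ones may also have been missed.

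In Mettl3 KO the fitted values lay further from those of the parent line, nearer 0 for the genes that stood furthest from it in RBC, but none of these differences passed the test. Setdb1 had IP over input of 0.10 and 0.38 in RBC against -0.23 and -0.38 in Mettl3 KO, a difference of -0.56 (SE 0.310, adjusted p = 0.854 in edgeR). Suv39h2 differed by -0.54 (SE 0.475), Trim28 by 0.68 (SE 0.41), Cbx5 by 0.65 (SE 0.502) and Hells by 0.55 (SE 0.626), each with an adjusted p of 0.854 or 0.855. Among all features edgeR called 0 (0%), 787 (3.48%) had an unadjusted p under 0.05, none of them a member, and DESeq2 called 0. With the replicate number as a block within input and within IP, an alternative chosen after seeing the data, 4569 features (20.2%) and 5 of the 10 members had an unadjusted p under 0.05, and still 0 features were called. All 10 members kept their direction in both replicates. Suv39h1, Ehmt2, Trim28, Cbx1, Cbx3, Cbx5 and Hells were higher, and Suv39h2, Ehmt1 and Setdb1 lower, in Mettl3 KO than in RBC. The share of all features that kept their direction was not computed. Deviations of same-numbered IP libraries of these 2 lines correlated by 0.61 over all features. The count of members that kept their direction can therefore not be read as particular to them. The members' median was 0.32, against 0.01 for all features, since 7 of the 10 changes were above 0. Between the parent lines the members' log2 IP over input differed by -0.07 to 0.25, and the changes in the 2 knockouts differed from each other by -0.60 to 0.64. In both of these tests none of the 10 genes and 0% of all features were called in edgeR, and 214 features had an unadjusted p under 0.05 in the second.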

How the data were processed

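The deposited values are raw counts per gene (RNA-seq) and per gene or repeat subfamily (MeRIP-seq), used as deposited. For MeRIP-seq the authors sequenced rRNA-depleted nuclear RNA paired-end. The RNA-seq labels name total RNA and the same library kit, while the study's results describe that RNA as nuclear. Reads were trimmed with cutadapt 1.8.1, aligned to GRCm38 with STAR 2.6.0c, and MeRIP reads were counted with TEtranscripts, which shares multi-mapping reads among features; the submitters' notes also name FastQC and DESeq2 1.26.0. The counter of RNA-seq and its strand setting are not given in the sources used here.

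Counts were divided by DESeq2 size factors and tested with edgeR 4.0.16 (R 4.3.3, quasi-likelihood, filterByExpr). RNA-seq was fitted on 8 libraries (17021 genes tested) and MeRIP-seq on 16 (22621 features tested, of 49090 that include 1153 repeat subfamilies), with line, and line by fraction, as the groups. The adjusted p is the Benjamini-Hochberg value over all features tested, a call is an adjusted p of at most 0.05, and the fold limit was 1 on the log2 scale. The scripts were tested on simulated data. MeRIP replicates are called biological in the study's methods, and the sources used here do not say how the RNA-seq replicates were made, so their spread may be technical. With 2 per group the p-values measure the spread between these samples, and no exact test over samples can pass 0.05. Figures used Python 3.11.15 and matplotlib 3.10.9.

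The 10 members and all lists were chosen with earlier results of these data known. All members were described in every comparison, with fitted values for those the text turns on and ranges for the rest. Other genes of the pathway were named where they passed the fold limit or were the 2 largest called changes in a knockout at a mean of at least 50 normalized counts. Of the sequences shown, only Suv39h2 met the rule set for them, enrichment in both parent lines, and it did so by the adjusted p alone. Protein sequences were not used here.

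Input and IP of 1 line and number are the same biological replicate in the study's methods, and their deviations from the line means correlated by 0.200 to 0.287 over 13662 features. Alternatives were the DESeq2 1.42.0 Wald test, TMM, library size, size factors from genes alone, no filter, at least 10 counts in every library, only the compared libraries, replicate blocks, and leaving out each replicate. The block on replicate number within input and within IP and the crossed block were chosen after seeing the data.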

Additional observations from a re-analysis of the deposited data

Results flagged for a closer look

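The RNA-seq change in Mettl3 KO against RBC differed from that in Mettl14 KO against WT26, by edgeR's test of the difference itself, for 6 members and 4 other named genes. The change was higher in Mettl3 KO for Setdb1 (0.90 on the log2 scale, adjusted p = 2.0e-08), Cbx5 (0.38, adjusted p = 3.0e-04), Cbx1 (0.28, adjusted p = 0.00283) and Ehmt1 (0.27, adjusted p = 0.0234). It was lower for Suv39h1 (-0.40, adjusted p = 0.00601) and Trim28 (-0.20, adjusted p = 0.0461). Among the other genes it was higher for Kdm3a (1.258, adjusted p = 3.8e-10) and Kdm4c (0.84, adjusted p = 1.5e-06) and lower for Zfp57 (-1.13, adjusted p = 2.7e-09) and for Mettl3, the gene targeted in Mettl3 KO (-0.57, adjusted p = 1.7e-04). Most of the Mettl3 difference was a rise in Mettl14 KO, since its log2 fold change was 0.41 there and -0.16 in Mettl3 KO. With 2 libraries in a group, no single library could be tested as standing apart.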

How the results depend on the processing

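Counts of called members are given with the reported count in brackets, and the cause of each shift was not tested. With library-size scaling, RNA-seq called 1 member lower in Mettl3 KO (3), 1 higher in RBC than WT26 (2), and 7 higher and 0 lower for the difference between knockouts (4 and 2). TMM and the filter of 10 counts each left 1 of the latter lower calls. Only the compared libraries gave 1 lower input call in each knockout (0), where 5.53% of all features were called in Mettl14 KO and 11.5% in Mettl3 KO. In IP over input, library-size scaling gave 1 enriched member in WT26 (0), 3 above 0 in WT26 (1), 2 in Mettl14 KO (1), 4 in RBC (1) and 1 in Mettl3 KO (0), and 1 below 0 in Mettl14 KO and in RBC (2). Size factors from genes alone gave 0 above 0 in WT26 and 0 enriched in Mettl14 KO, as did only the compared libraries for both counts of Mettl14 KO (1).

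Leaving out each replicate gave 1 to 3 members higher and 1 to 2 lower in Mettl3 KO by RNA-seq, and 1 to 2 lower for the difference. In IP over input it gave 0 above 0 and 0 to 3 below in WT26 and in Mettl14 KO, 0 enriched in Mettl14 KO, and 0 to 1 enriched, 0 to 1 above 0 and 0 to 3 below in RBC.

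The RNA-seq numbers share only a number: deviations correlated by -0.07 for Mettl14 KO and WT26, 0.46 for Mettl3 KO and RBC, and -0.17 for RBC and WT26. In MeRIP-seq same-numbered libraries of these pairs correlated by 0.61 to 0.81 in the IP and 0.26 to 0.46 in the input, over 2 pairs each. With the replicate number as a block, RNA-seq still called 8 members in Mettl14 KO and 6 in Mettl3 KO, among 9011 and 9142 genes (8930 and 9085). With input and IP paired as a block, 0 members were enriched in Mettl14 KO (1). The block on number within input and within IP, chosen after seeing the data, gave 1 lower input call in Mettl14 KO (0), 2 members above 0 in each line but Mettl3 KO, which had 1, 0 enriched in Mettl14 KO and RBC, and 0.0378 for Hells in Mettl3 KO in place of -0.50.

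Values that changed sign with library-size scaling in Mettl3 KO against RBC were those of Ehmt2 (0.0747), Cbx1 (0.0818), Cbx3 (0.0649), Cbx5 (0.02), Hells (0.0109), Kdm3a (0.14) and Kdm4c (0.12). Leaving out replicates gave a range of -0.0349 to 0.16 for Ehmt1, -0.20 to 0.031 for Cbx3, -0.0603 to 0.0518 for Kdm3a and -0.16 to 0.0884 for Kdm4c in that comparison, and -0.23 to 0.0449 for Suv39h1 in the input of Mettl14 KO. For the change of IP over input in Mettl14 KO it gave -0.35 to 0.38 for Suv39h2, -0.36 to 0.55 for Trim28 and -0.40 to 0.77 for Cbx5. Over all 140 values of members and 1730 alternatives, 118 changed sign, 2 of them called, and 88 changed the call. Of the sign changes, 103 were in 50 values that the text gives only by range.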
